A study of Mus musculus with 99 samples.

Results

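The SOX proteins considered here are the lineage factors of the family that act outside the pluripotent state. They are the 10 genes Sox1, Sox3, Sox7, Sox8, Sox9, Sox10, Sox11, Sox17, Sox18 and Sox21, chosen by name and found by gene symbol among the 55341 gene names of the RNA-seq count tables. Their values were read in all 16 RNA-seq libraries, and peaks of 12 antibodies in 70 ChIP-seq libraries were collected within 2.5 kb of each gene. Another 10 family members, Sox2 among them, serve as a comparison list.

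The study asked what H2AK119ub1, the single ubiquitin that Polycomb repressive complex 1 (PRC1) attaches to histone H2A, contributes to repression in mouse embryonic stem cells (ESCs). Parental cells carry ROSA26::creERT2, lack RING1A on both alleles (RING1A-/-) and have floxed Ring1b (RING1B fl/fl), so that 4-hydroxytamoxifen (OHT) switches on a ubiquitously expressed Cre and removes the remaining RING1B, an E3 ligase of PRC1 encoded by Rnf2. RING1B WT and RING1B I53S cells are derivatives of these cells, selected as clones, that stably express a tagged wild-type RING1B or a RING1B without ligase activity. OHT was given at 0.5 µM for 72 h, or for 48 h in part of the ChIP-seq, and ethanol (EtOH) was the vehicle. The absence of RING1A is shared by the vehicle and OHT groups of these 3 lines. A separate Eed fl/fl ROSA26:creERT2 line, with intact RING1A and RING1B genes as far as the labels say, loses EED, a core subunit of PRC2, with OHT. The paper lists 2 Eed fl/fl clones, and the sample titles do not say which clone gave a library. MTF2 KO clones of the 3 RING1B lines were used for ChIP-seq of SUZ12 and H3K27me3. All cells were grown as undifferentiated ESCs with serum, LIF and 2 kinase inhibitors. Each of the 8 RNA-seq groups had 2 libraries, and nothing in the labels tells whether these came from separate cultures, so the p-values measure the spread between libraries only.

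Polycomb proteins keep developmental regulators silent in ESCs, mostly at promoters rich in CpG. PRC1 is recruited as canonical complexes, which hold CBX proteins and PCGF2 and read H3K27me3, and as variant complexes, which hold RYBP and other PCGF proteins. PRC2 writes H3K27me3 and comes in a form with subunits such as MTF2 and EPOP and a form with JARID2 and AEBP2, the latter able to bind H2AK119ub1. Each SOX protein binds DNA through an HMG box, and the groups of the family share partners and tissues: SoxB1 in neural progenitors, SoxB2 and SoxC in differentiating neurons, SoxE in neural crest, cartilage and testis, and SoxF in endothelium and endoderm.

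Promoters of 3 of these genes are printed here because peaks of Polycomb proteins covered them in some libraries. A further reason is that their CpG content is the sequence feature with which Polycomb binding is associated. RefSeq promoter sequences (GRCm38.p6) were held for 4 of the 10 genes, Sox1, Sox8, Sox11 and Sox21, and the 250 bases that precede the RefSeq start are shown for Sox8, Sox11 and Sox21, with each CG pair (CG, the same on either strand) in capitals. The Sox8 window lies at chr17:25570687-25570936 on the minus strand, the Sox11 window at chr12:27342719-27342968 on the minus strand and the Sox21 window at chr14:118237031-118237280 on the minus strand.
Sox8: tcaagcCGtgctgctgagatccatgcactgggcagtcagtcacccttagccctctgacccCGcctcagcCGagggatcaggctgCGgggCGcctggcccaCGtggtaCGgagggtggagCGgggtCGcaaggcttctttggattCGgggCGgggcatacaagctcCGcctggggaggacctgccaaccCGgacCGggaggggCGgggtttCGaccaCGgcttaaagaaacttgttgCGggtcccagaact
Sox11: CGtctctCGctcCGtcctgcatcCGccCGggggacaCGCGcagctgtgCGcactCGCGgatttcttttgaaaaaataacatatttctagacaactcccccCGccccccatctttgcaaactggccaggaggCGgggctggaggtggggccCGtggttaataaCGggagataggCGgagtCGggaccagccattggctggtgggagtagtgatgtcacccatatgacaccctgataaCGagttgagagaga
Sox21: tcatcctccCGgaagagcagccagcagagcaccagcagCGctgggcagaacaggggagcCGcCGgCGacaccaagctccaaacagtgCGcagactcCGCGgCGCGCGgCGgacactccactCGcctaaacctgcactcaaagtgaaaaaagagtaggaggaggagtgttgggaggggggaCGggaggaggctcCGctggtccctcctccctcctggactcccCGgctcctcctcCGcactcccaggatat
The Sox1 window is not printed because 224 of its 250 bases lie inside the GENCODE transcript; it held 29 CG pairs, as many as were found in 6.43% of all promoters, and peaks covered it whole in 25 of the 70 antibody libraries. The Sox8 window held 18 CG pairs, and the Sox11 and Sox21 windows held 17 each. Over 27025 promoters of the same length the median was 6, with quartiles of 2 and 16, and 91.7% held at least 1. As many as 18 were found in 21.6% of all promoters and as many as 17 in 23.6%. Peaks covered the whole Sox8 window in 29 of the 70 antibody libraries, the Sox11 window in 12 and the Sox21 window in 26. These totals pool all antibodies, lines and treatments, and no share for other promoters stands beside them. Peaks of H2AK119ub1 and AEBP2 covered none of these windows whole, and H2AK119ub1 peaks covered no base of the Sox11 and Sox21 windows. H3K27me3 peaks covered only the Sox21 window whole, in Parental cells with EtOH.

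Library depth ranged from 8140106 to 12743460 counted reads in the Parental, RING1B WT and RING1B I53S cells and from 6957248 to 9443814 in Eed fl/fl cells. Levels are given as CPM, the reads of a gene relative to all counted reads of its library after scaling by TMM within the 12 libraries of the first 3 lines and, separately, within the 4 Eed fl/fl libraries, so levels across these sets are not on one scale. Calls required a log2 fold change of 1.5 or more in size together with an adjusted p (Benjamini-Hochberg) under 0.05 in edgeR's quasi-likelihood test, which is the test behind each adjusted p given here. In the Eed fl/fl line, Eed had 171.2 and 253.6 CPM with EtOH and 43.1 and 66.5 CPM with OHT, a log2 fold change of -1.95 (SE 0.32, adjusted p 0.0766). Rnf2 in Parental cells averaged 227 ± 41.6 CPM (SD, n = 2) with EtOH and 155 ± 16.1 CPM with OHT, a log2 fold change of -0.55 (adjusted p 0.0346). Reads are summed over all Rnf2 exons, and in the RING1B WT and RING1B I53S cells the transgene can add to them, so this value is a weak check of the deletion.

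With OHT, 7 of the 10 Sox genes rose in Parental cells and 7 rose in RING1B I53S cells, and in both lines these were Sox3, Sox7, Sox8, Sox9, Sox10, Sox17 and Sox18. None of the 9 tested genes was called in RING1B WT cells, where 1 (Sox10) had an unadjusted p under 0.05 and DESeq2 called 0, and none of 8 in Eed fl/fl cells, where 1 (Sox11) had an unadjusted p under 0.05 and DESeq2 called 0. Among all 18154 genes tested, 15.1% were called higher in Parental cells, 12.8% in RING1B I53S cells and 1.38% in either direction in RING1B WT cells, and of 25170 genes 0.00795% were called in Eed fl/fl cells. The median log2 fold change of the 9 tested Sox genes was 3.48 in Parental, 2.81 in RING1B I53S and 0.75 in RING1B WT cells, against 0.03, 0.01 and 0.02 over all genes. Sox1 had too few reads for the filter in either set, and Sox3 in Eed fl/fl. Several of the genes that passed had reads almost only with OHT, so a difference was bound to be seen in them, and neither the median nor the count of tested genes is independent support. Both OHT libraries lay above both vehicle libraries for 9 of the 10 genes in Parental cells (all but Sox11), where 38% of all genes did so, for 8 in RING1B I53S cells (31.5%), for 3 in RING1B WT cells (26.9%) and for 1 in Eed fl/fl cells (22%). In cultures such as these, more cells that express a gene and more RNA per cell cannot be told apart.

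**Figure D1:**
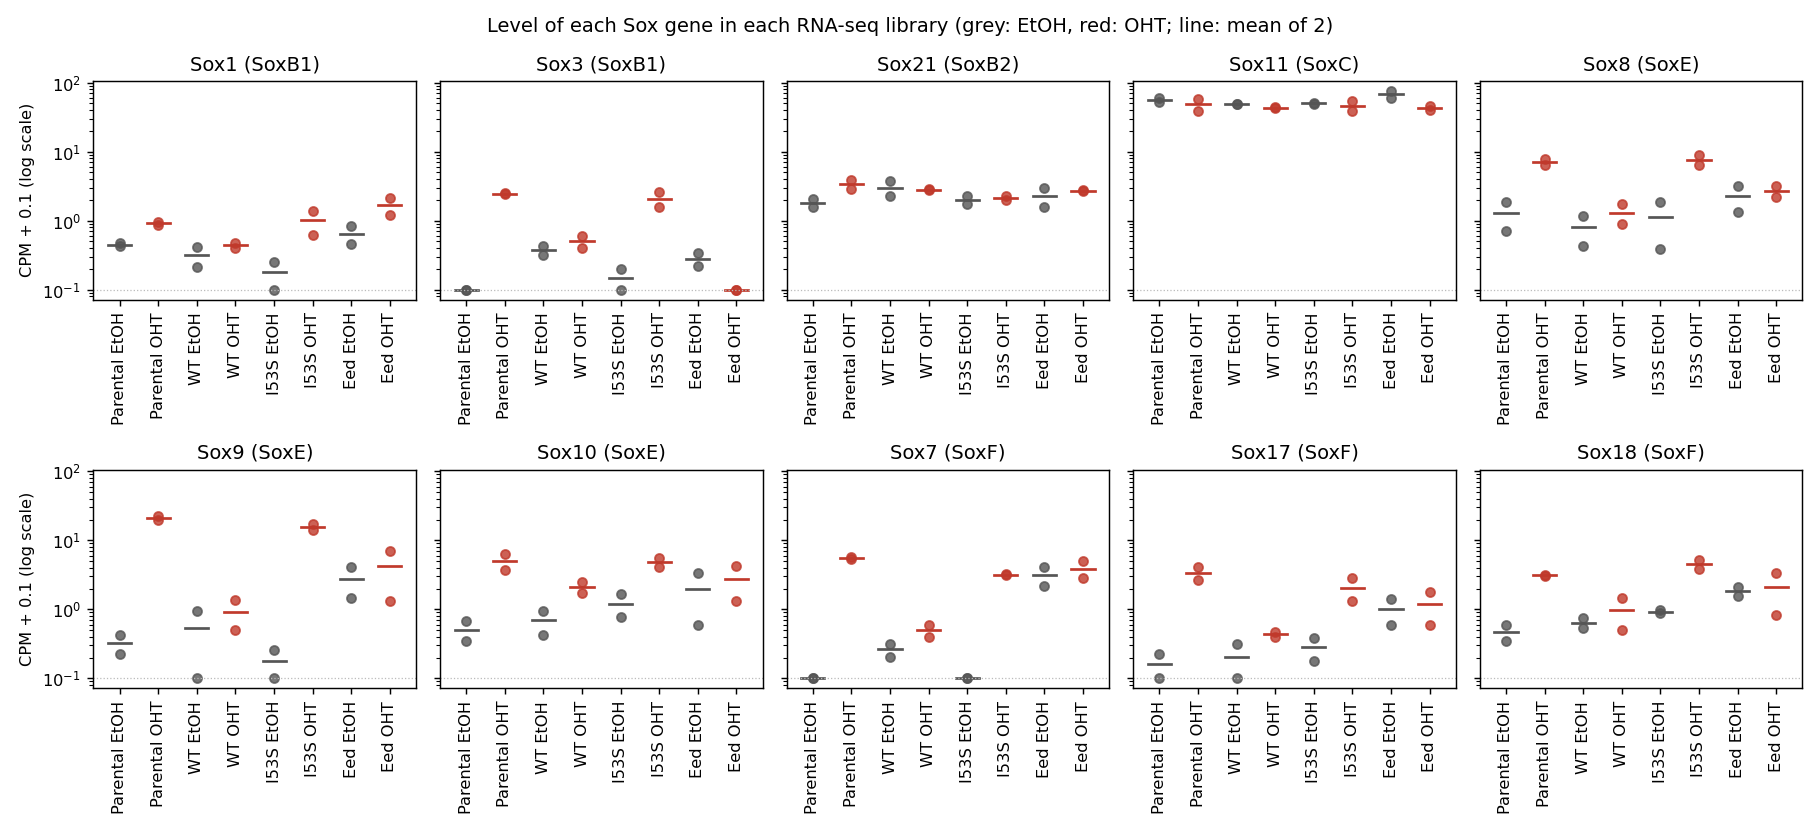
Level of each Sox gene in each of the 16 RNA-seq libraries, as CPM + 0.1 on a log axis, with EtOH in grey, OHT in red and a line at the mean of 2 libraries; the dotted line marks 0 CPM. Sox9 stands near 0 in the vehicle libraries of the 3 RING1B lines and between 14.1 and 22.3 CPM in the Parental and I53S libraries with OHT, while Sox11 lies between 38.9 and 75.6 CPM in every library.

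SoxB1 genes encode the activators that hold neural progenitors in a proliferating state. Sox3 is an X-linked gene of 1 exon (X, 60891366 to 60893430, minus strand, mm10). It had 0 and 0 reads in Parental cells with EtOH and 28 and 24 reads with OHT, or 2.36 ± 0.036 CPM (SD, n = 2). Against a floor of 3 reads over the vehicle group this was at least 16.1-fold higher (adjusted p 0.000166). Sox3 had, in RING1B I53S cells, 0 and 1 reads with EtOH and 25 and 17 with OHT, a ratio of 45.4 with a counting interval of 7.72 to 1837 (adjusted p 0.000707). In both lines the OHT libraries stood apart from the vehicle libraries. RING1B WT cells had 2 and 3 Sox3 reads with EtOH and 3 and 4 with OHT, a log2 fold change of 0.52 with a 95% interval of -1.48 to 2.52 (adjusted p 0.848), and Eed fl/fl cells had 1 and 2 with EtOH and 0 and 0 with OHT.

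Sox1, the other SoxB1 member, is among the earliest neuroectoderm genes and had the lowest level per length of the 10 in the OHT groups of the 3 RING1B lines (chromosome 8, 12395295 to 12400126, plus strand, 1 exon). Its reads were 4 and 3 with EtOH and 10 and 8 with OHT in Parental cells, 3 and 1 against 3 and 3 in RING1B WT cells, and 2 and 0 against 13 and 6 in RING1B I53S cells. Eed fl/fl cells had 6 and 3 Sox1 reads with EtOH and 9 and 17 with OHT. The groups did not overlap in Parental, RING1B I53S or Eed fl/fl cells, but at this depth the gene fell below the filter. With no filter on low counts, Sox1 had a log2 fold change of 3.24 in RING1B I53S cells (adjusted p 0.0295), against 1.21 in Parental cells (adjusted p 0.544). The value in RING1B I53S cells rests on 2 vehicle reads. In separate refits with the filter kept, which Sox1 passed once a vehicle library was left out, it was 2.44 without the second vehicle library and 6.19 without the first.

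Sox21, of the SoxB2 group, encodes a repressor that counteracts SoxB1 activators (chromosome 14, 118233232 to 118237030, minus strand, 1 exon). It was measured at a low level in every library, with 24 and 12 reads with EtOH and 33 and 39 with OHT in Parental cells, 34 and 20 against 27 and 22 in RING1B WT cells, and 28 and 17 against 19 and 25 in RING1B I53S cells. The Parental OHT libraries, at 2.81 and 3.79 CPM, lay above the vehicle libraries at 1.95 and 1.48 CPM, but the log2 fold change of 0.92 did not pass the test (95% interval -0.03 to 1.87, adjusted p 0.126). The log2 fold change in RING1B I53S cells was 0.09 (-0.87 to 1.05, adjusted p 0.911). A long non-coding gene on the opposite strand, Gm4675, shares 713 bp, or 18.8%, of the Sox21 exons, and since reads were counted without strand the signals of the pair cannot be separated.

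Sox11, a SoxC gene that promotes neuronal differentiation and is widely transcribed in embryos, was the member that ESCs already expressed (chromosome 12, 27334264 to 27342574, minus strand, 1 exon). With EtOH it had 723 and 427 reads in Parental, 457 and 440 in RING1B WT and 640 and 529 in RING1B I53S cells. With OHT it had 673 and 403, 423 and 358, and 538 and 453 reads. No gain was seen: the log2 fold changes were -0.21 in Parental (95% interval -0.65 to 0.23), -0.16 in RING1B WT (-0.60 to 0.29) and -0.11 in RING1B I53S cells (-0.55 to 0.33). In Eed fl/fl cells Sox11 had 617 and 511 reads with EtOH and 373 and 333 with OHT, or 68.1 ± 10.7 and 43.2 ± 4.06 CPM. Both OHT libraries were below both vehicle libraries, and the log2 fold change of -0.65 (SE 0.25) had an unadjusted p of 0.0217 and did not pass after adjustment (0.833).

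SoxE genes act in neural crest, cartilage, glia and testis, and all 3 rose in Parental and RING1B I53S cells. Sox9, the master gene of cartilage and of Sertoli cells (chromosome 11, 112782224 to 112787760, plus strand, 3 exons), showed the widest separation in reads. It had 4 and 1 reads with EtOH and 228 and 229 with OHT in Parental cells, 8 and 0 against 4 and 10 in RING1B WT cells, and 2 and 0 against 141 and 199 in RING1B I53S cells. The mean level went from 0.224 ± 0.143 to 20.8 ± 2.02 CPM (SD, n = 2) in Parental cells, a log2 fold change of 6.35 (SE 0.65, adjusted p 6.07e-07). The level reached 15.6 ± 2.13 CPM in RING1B I53S cells, and the ratio over 2 vehicle reads was 184 with a counting interval of 50.5 to 1525 (adjusted p 1.06e-06). In RING1B WT cells the log2 fold change of Sox9 was 0.85 with an interval of -0.88 to 2.59 (adjusted p 0.674).

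Sox8, whose product overlaps with SOX9 and SOX10 in function (chromosome 17, 25565892 to 25570686, minus strand, 3 exons), had 22 and 5 reads with EtOH and 91 and 64 with OHT in Parental cells. It had 23 and 3 against 62 and 104 in RING1B I53S cells and 10 and 3 against 8 and 13 in RING1B WT cells. These are log2 fold changes of 2.46 (SE 0.59, adjusted p 0.0031) in Parental and 2.81 (SE 0.59, adjusted p 0.00148) in RING1B I53S cells, and 0.75 (SE 0.76, adjusted p 0.69) in RING1B WT cells. The vehicle libraries of Sox8 were far apart in each of the 3 lines, with the first above the second, and without the first RING1B I53S vehicle library the log2 fold change there was 4.66. An antisense gene, 2810468N07Rik, overlaps 329 bp, or 10.6%, of the Sox8 exons, and its reads could have been counted with them or lost as ambiguous.

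Sox10, needed for glia and melanocytes of the neural crest (chromosome 15, 79154908 to 79165240, minus strand, 5 exon blocks), had 7 and 2 reads with EtOH and 42 and 65 with OHT in Parental cells, a log2 fold change of 3.48 (SE 0.62, adjusted p 0.000234). It had 20 and 7 against 40 and 63 reads in RING1B I53S cells, a log2 fold change of 2.05 (SE 0.53, adjusted p 0.0068), which without the second vehicle library was 1.60 and no longer passed (adjusted p 0.102). Sox10 was also the member with the largest shift in RING1B WT cells, from 8 and 3 reads to 24 and 13. Both OHT libraries were above both vehicle libraries there, at 2.41 and 1.62 against 0.854 and 0.329 CPM. The log2 fold change of 1.75 (95% interval 0.42 to 3.09) had an adjusted p of 0.167.

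SoxF genes drive endothelial and endodermal programmes, and these 3 rose in Parental and RING1B I53S cells too. Sox7, expressed in primitive endoderm and early blood and vessel precursors (chromosome 14, 63943673 to 63950732, plus strand, 2 exons), had 0 and 0 reads in the vehicle libraries of both lines. With OHT it had 62 and 58 reads in Parental cells, at least 37.0-fold more (adjusted p 6.02e-06), and 30 and 37 in RING1B I53S cells, at least 24.2-fold more (adjusted p 3.08e-05). RING1B WT cells had 1 and 2 reads with EtOH and 3 and 4 with OHT, so the groups did not overlap at the level of a few reads, and the log2 fold change of 1.21 did not pass (95% interval -0.78 to 3.20, adjusted p 0.584).

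Sox17, the definitive endoderm factor (chromosome 1, 4490931 to 4497354, minus strand, 4 exon blocks), had 0 and 1 reads with EtOH and 47 and 26 with OHT in Parental cells, a ratio of 67.6 with a counting interval of 11.8 to 2706 (adjusted p 0.000286). It had 1 and 3 against 27 and 14 reads in RING1B I53S cells, a log2 fold change of 3.39 (SE 0.87, adjusted p 0.00623). That call was lost without the first vehicle library (2.69, adjusted p 0.075) and without the first OHT library (2.72, adjusted p 0.0644). The transcript Gm37587 on the opposite strand covers 804 bp, or 16.8%, of the Sox17 exons. Sox18, a regulator of lymphatic and blood vessels (chromosome 2, 181669836 to 181671640, minus strand, 2 exons), had 3 and 4 against 36 and 30 reads in Parental cells and 10 and 9 against 38 and 60 in RING1B I53S cells. Its log2 fold changes were 3.05 (SE 0.65, adjusted p 0.0012) and 2.45 (SE 0.56, adjusted p 0.00266), and 0.65 (SE 0.71, adjusted p 0.713) in RING1B WT cells, where 6 and 4 reads stood against 4 and 11.

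**Figure D2:**
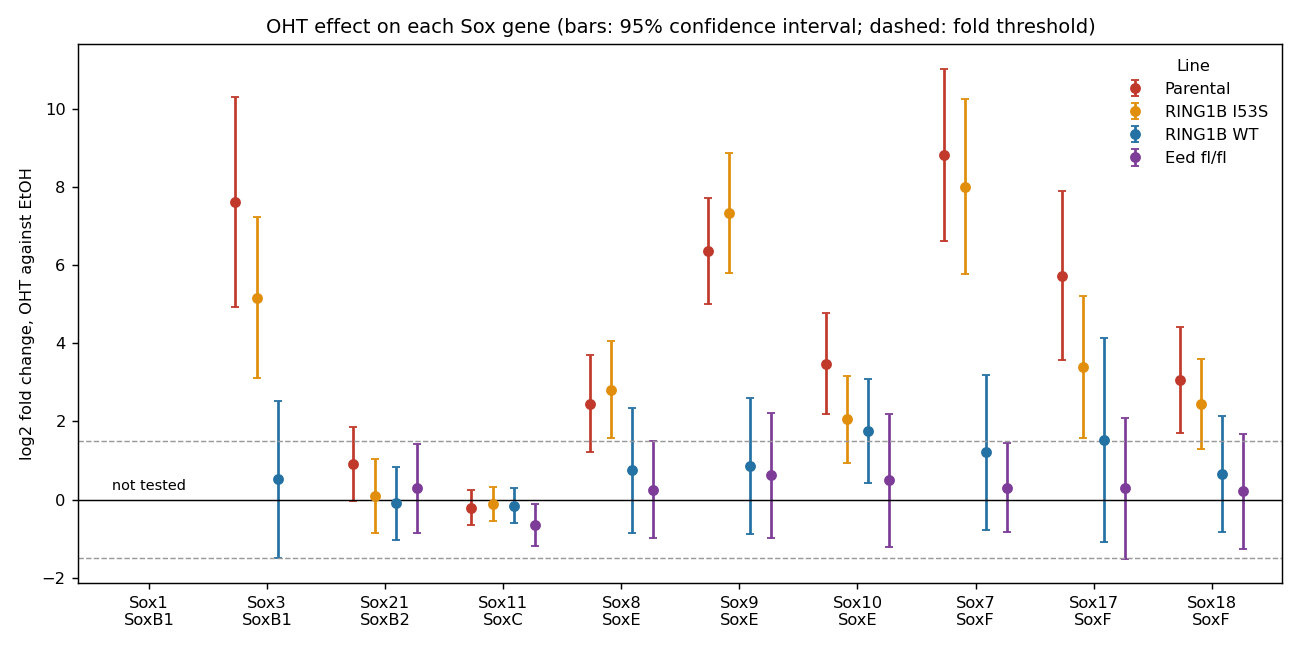
Fitted log2 fold change of OHT against EtOH for each Sox gene in 4 lines, with 95% confidence intervals and dashed lines at 1.5 in either direction. In Parental and I53S cells 7 genes lie above the upper line, whereas Sox11 lies near 0, Sox21 reaches 0.92 in Parental cells without passing the test, and no gene passed the test in RING1B WT or Eed fl/fl cells. The fitted values of Sox3 and Sox7 in Parental cells and of Sox7 in I53S cells rest on vehicle groups with 0 reads and are not sizes of change.

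In the Eed fl/fl line the OHT effects on the other tested members lay between 0.21 (Sox18) and 0.62 (Sox9) on the log2 scale, each with an interval across 0. The pairs of libraries were wide apart, as for Sox9 with 11 and 34 reads with EtOH and 10 and 58 with OHT, and Sox10 with 4 and 28 against 10 and 34. Sox7 had 17 and 34 reads with EtOH and 22 and 40 with OHT (log2 fold change 0.31, 95% interval -0.82 to 1.44). The intervals of Sox9, Sox10, Sox17 and Sox18 reached past 1.5, so changes of a size that could have been called were not detectable at this spread. For each tested member but Sox11, the second library with EtOH and the second with OHT each had more reads than the first. The second libraries had fewer counted reads in all, 8388557 against 9443814 with EtOH and 6957248 against 8377129 with OHT. The fit had no replicate block, so a difference between clones, if the libraries came from different ones, would count as spread. Whether they did was not tested.

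Next, the lines were compared with each other under OHT. RING1B WT cells had lower levels than Parental cells for 6 of the 10 genes, Sox3, Sox7, Sox8, Sox9, Sox17 and Sox18, where 7.62% of all genes were called lower. The log2 differences ran from -1.79 for Sox18 (SE 0.58, adjusted p 0.0376) to -4.70 for Sox9 (SE 0.56, adjusted p 1.76e-05). Sox10 differed by -1.28 and was not called (95% interval -2.34 to -0.21, adjusted p 0.0891), with 2.01 ± 0.562 CPM in RING1B WT against 4.95 ± 1.94 CPM in Parental cells. The count of 6 fell to 2 without the first RING1B WT library or without the first Parental library, and DESeq2 called 5.

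RING1B I53S cells were higher than RING1B WT cells for the same 6 names, where 6.02% of all genes were called higher. Here the log2 differences were 2.29 for Sox3 (adjusted p 0.0469), 2.94 for Sox7 (0.00538), 2.67 for Sox8 (0.00674), 4.29 for Sox9 (8.75e-05), 2.49 for Sox17 (0.0493) and 2.38 for Sox18 (0.00964). Both comparisons use the same RING1B WT libraries, so they are not separate evidence. Without the first RING1B WT library 1 gene remained called, and DESeq2 called 4.

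Comparing RING1B I53S with Parental cells, both with OHT, 0 of the 9 tested Sox genes were called by edgeR, 0 had an unadjusted p under 0.05 and DESeq2 called 0, with 0.16% of all genes called. The differences ranged from -0.82 for Sox7 to 0.58 for Sox18 on the log2 scale. For Sox9 the interval was -1.27 to 0.44, for Sox7 -1.82 to 0.19, for Sox17 -2.07 to 0.56 and for Sox8 -0.94 to 1.18, and the interval reached past 1 in size for each tested gene but Sox11 (-0.50 to 0.38). The mean level was lower in RING1B I53S cells for Sox3, Sox7, Sox9, Sox10, Sox11, Sox17 and Sox21. Without OHT, no Sox gene was called between any pair of these 3 lines by edgeR or DESeq2, with unadjusted p under 0.05 for 2 genes between RING1B WT and Parental cells (Sox3 and Sox7, 0 reads in Parental cells), for 1 between RING1B I53S and RING1B WT cells (Sox7) and for 0 between RING1B I53S and Parental cells. Of all genes, 0.0606%, 0.0441% and 0.154% were called in these pairs.

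Tested as a difference between OHT effects, RING1B WT and Parental cells differed for Sox7 by -7.61 (adjusted p 0.0417) and for Sox9 by -5.50 (adjusted p 0.0229) on the log2 scale, where 1.1% of genes were called lower. RING1B I53S and RING1B WT cells differed for Sox9 by 6.48 (adjusted p 0.0308), where 0.209% of genes were called higher. Between RING1B I53S and Parental cells the OHT effect differed for no Sox gene (0 with an unadjusted p under 0.05, 0 by DESeq2), and 0% of all genes were called. The sizes for Sox7 depend on vehicle groups with 0 reads. Leaving out any 1 of the 8 libraries cost the first comparison 1 or both of its calls, and 5 of 8 such refits ended the Sox9 call in the second.

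Set in order per length, Sox11 was highest in Parental cells with OHT at 5.81 ± 1.54 CPM per kb of exon (SD, n = 2), followed by Sox9 at 5.04 ± 0.487, and the ranges of this pair overlapped. Sox8 (2.24), Sox18 (1.85), Sox7 (1.66), Sox10 (1.62) and Sox3 (1.14) formed the middle, and Sox21 (0.869), Sox17 (0.684) and Sox1 (0.169) the lower end. The libraries of Sox10 spanned those of Sox18 and Sox7, and Sox21 and Sox17 overlapped. With EtOH the order was different, since Sox11 stood at 6.71 ± 0.519 and the next gene, Sox21, at 0.452 CPM per kb. In RING1B I53S cells with OHT the order began in the same way, with Sox11 at 5.58 and Sox9 at 3.77, then Sox18 (2.76) and Sox8 (2.43). Sox9 was thus raised from the seventh of 10 places to the second in Parental cells.

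Across the 12 libraries of the 3 RING1B lines, Pearson's r of log2 CPM between pairs of the 9 tested members had a median of 0.83 and ranged from -0.48 to 0.98 (36 pairs). These libraries share lines and treatments, so r is a description of one common pattern. Among all genes other than the 10, those most like each member were Pax9 (r = 0.985) and Gata6 (0.983) for Sox3, Nr2f2 (0.992) and Gcnt1 (0.988) for Sox7, Drd4 (0.992) and Msx1 (0.990) for Sox9, and Lhx1 (0.977) and Ret (0.977) for Sox17. Sox8 was nearest to Kcnf1 (0.984) and Susd3 (0.977), Sox10 to Parva (0.990) and Ptpn18 (0.984), and Sox18 to Smim3 (0.978) and Efna2 (0.975). Sox11 and Sox21 had looser neighbours, 4732487G21Rik (0.928) and Hibadh (0.870) for the former and Pdxk (0.845) and Ackr3 (0.828) for the latter.

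The remaining SOX family behaved less uniformly. Of 10 other Sox genes 9 were tested, and in Parental cells 3 rose (15.1% of all genes were called higher) and 1 fell (1.83% were called lower). Sox2, the SoxB1 factor of pluripotency, fell from 198 ± 59.7 to 50.3 ± 5.50 CPM, a log2 fold change of -1.97 (SE 0.23, adjusted p 3.42e-06). It fell, in RING1B I53S cells, by 1.24 on the log2 scale (adjusted p 0.00045), short of the fold threshold. Sox6, a SoxD partner of SOX9 in cartilage, rose from 1.59 ± 0.507 to 12.1 ± 0.233 CPM in Parental cells (2.88, adjusted p 3.78e-05) and by 2.48 in RING1B I53S cells (adjusted p 0.000129). Sox14, the SoxB2 relative of Sox21, had 2 reads with EtOH and 52 with OHT in Parental cells and 1 and 40 in RING1B I53S cells (adjusted p 0.0026 and 0.00289). Sox30, a testis gene, rose by 2.16 (adjusted p 0.00459) and 1.72 (adjusted p 0.025). In RING1B WT cells none of the 9 was called (1 with an unadjusted p under 0.05, DESeq2 0).

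Genes of the lineages in which the members act were followed as lists. As background for these lists and for the markers, 15.1% of all tested genes were called higher and 1.83% lower in Parental cells. The shares called higher were 12.8% in RING1B I53S and 1.34% in RING1B WT cells. Genes tested in these lines were 10 neural progenitor, 8 neuronal, 11 endoderm, 12 endothelial, 11 crest, 9 chondrocyte and 7 Sertoli genes. Of 12 neural progenitor genes, 7 rose in Parental and 6 in RING1B I53S cells, and 1 in RING1B WT cells. Pax3, a dorsal neural tube factor, went from 0.286 to 17.2 CPM in Parental cells (log2 fold change 5.82, adjusted p 2.5e-08), and Nes, the progenitor filament nestin, from 6.56 to 30.6 CPM (2.21, adjusted p 4.9e-06). Pax6, of the eye and forebrain, went from 0.797 to 9.04 CPM (3.45, adjusted p 9.06e-05). Of 9 neuronal differentiation genes, 3 rose and 2 fell in Parental cells, and 1 rose in RING1B I53S cells. The neuronal genes that fell were Stmn2 (419 to 132 CPM, -1.67) and Tubb3 (76.5 to 22.5 CPM, -1.77), both cytoskeletal, while Nefl, a neurofilament, rose from 10.1 to 29.6 CPM (1.56). In RING1B WT cells 0 neuronal genes were called (1 with an unadjusted p under 0.05, DESeq2 0).

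Of 12 genes of definitive and primitive endoderm, 9 rose in Parental and 9 in RING1B I53S cells. Gata6 and Lhx1, endoderm regulators, had 0 reads in both Parental vehicle libraries and 5.27 and 7.75 CPM with OHT, at least 35.8-fold and at least 53.1-fold more. Col4a1, a basement membrane collagen, went from 8.10 to 78.6 CPM (3.28, adjusted p 2.11e-08) and rose by 3.17 in RING1B I53S cells. In RING1B WT cells edgeR called 0 of these genes (4 with an unadjusted p under 0.05, DESeq2 1). Of 12 endothelial genes, 7 rose and 1 fell in Parental cells and 8 rose and 1 fell in RING1B I53S cells. The one that fell, Pecam1, an adhesion protein that ESCs also express, went from 257 to 46.1 CPM (-2.47, adjusted p 1.1e-08), while Prox1, the lymphatic factor, went from 0.307 to 8.14 CPM (4.72) and Flt4, a receptor of lymphatic endothelium, from 9.15 to 38.8 CPM (2.07). RING1B WT cells had 0 calls in this list (4 with an unadjusted p under 0.05, DESeq2 0).

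Neural crest genes were split, with 6 of 12 higher and 1 lower in Parental cells and 3 higher and 2 lower in RING1B I53S cells. Of all genes 1.04% were called lower in RING1B I53S cells. Mitf, the melanocyte factor, fell from 106 to 21.8 CPM (-2.28, adjusted p 1.76e-07), and Msx1 rose from 0.367 to 10.5 CPM (4.72, adjusted p 4.9e-06). Tfap2b, an early crest factor, had 0 reads in the Parental vehicle libraries and 2.59 CPM with OHT, at least 17.6-fold more (adjusted p 0.000556). In RING1B WT cells 0 crest genes were called (1 with an unadjusted p under 0.05, DESeq2 0). Of 10 chondrocyte genes 7 rose in Parental and 6 in RING1B I53S cells, among them Col2a1, the cartilage collagen that SOX9 activates, from 7.49 to 43.7 CPM (2.52, adjusted p 1.16e-06), and the cartilage matrix genes Matn1 (0.959 to 9.18 CPM, 3.18) and Col11a1 (6.01 to 24.6 CPM, 2.01). Of 8 Sertoli genes 7 rose in Parental and 6 in RING1B I53S cells, with Wt1, a gonadal transcription factor, from 0.143 to 6.27 CPM (5.31, adjusted p 8.57e-06), Dmrt1, a testis factor, from 3.82 to 18 CPM (2.23) and Ptgds, the prostaglandin D synthase, from 6.57 to 21.3 CPM (1.70). RING1B WT cells had 1 call in each of the chondrocyte and Sertoli lists. In Eed fl/fl cells 0 of the 91 tested genes of all these lists and the marker lists was called by edgeR (9 with an unadjusted p under 0.05, DESeq2 0).

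Markers of the ESC state and of other cell types moved along with these changes. The summed level of 9 pluripotency markers was 5302 to 6498 CPM in Parental cells with EtOH and 3253 to 3341 CPM with OHT, and 5289 to 6420 against 3480 to 3550 CPM in RING1B I53S cells. In RING1B WT cells it was 5652 to 6892 against 5336 to 5525 CPM. None of the 9 was at 0, and 3 fell in Parental cells, including Zfp42 (743 to 182 CPM) and Klf2 (108 to 19.4 CPM), besides Sox2. The RING1B WT cells had 0 pluripotency calls (3 with an unadjusted p under 0.05, DESeq2 0). Of 7 trophoblast markers 6 were tested, and 4 rose in Parental and RING1B I53S cells and 3 in RING1B WT cells. The 7 summed to 111 to 131 CPM with EtOH against 203 to 237 CPM with OHT in Parental cells. Gata3, a trophoblast factor, went from 0.491 to 52.2 CPM there, and rose by 2.13 on the log2 scale in RING1B WT cells. Hand1 (0.245 to 20.7 CPM) and the keratin gene Krt7 (11.9 to 60 CPM) rose as well in Parental cells. Of 7 fibroblast markers 3 were tested, and 2 rose in Parental cells. The 7 summed to 11.9 to 14 CPM with EtOH against 45.6 to 48.3 CPM with OHT there, and 3 of the 7 were at 0 with OHT. The collagen genes Col1a1 (2.84 to 18.6 CPM) and Col1a2 (0.143 to 6.17 CPM) rose, and Thy1 (9.94 to 22.1 CPM) stayed short of the fold threshold. Their part in the Sox changes was not tested.

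ChIP-seq peaks at the Sox genes were then examined. Each library's peaks were called separately, a peak's score is its -log10 p, and each condition had 1 library, or 2 for MTF2 and JARID2 after 72 h in the WT and I53S lines, so the values below carry no test. The share of 21911 coding genes with a peak in the same library is given as background. The lists do not carry the spike-in scaling of the histone marks. The MTF2 and JARID2 lists of Parental cells with EtOH stood apart. The MTF2 list held 24485 peaks, at 54.7% of coding genes, against 13559 and 11623 peaks in the vehicle libraries of the other lines. The JARID2 list held 14778 peaks, at 34.8%, against 7446 and 6563. Covered lengths of these antibodies in Parental vehicle cells therefore come from longer lists. None of the 4 input lists had a peak at a Sox gene. These were inputs of the H3K27me3 ChIP-seq in MTF2 KO cells, with 9 to 19 peaks each, and are no control for the other libraries.

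RING1B had a peak at 10 of 10 Sox genes in Parental cells with EtOH (19.5% of coding genes) and at 10 of 10 in RING1B WT cells with OHT (15%). In Parental cells with OHT it had a peak at 0 of 10 (2.36%). In RING1B I53S cells with OHT only Sox9 kept one, with a score of 14.2 against 320 in Parental vehicle cells, and 4.21% of coding genes had a peak. The strongest RING1B peak in vehicle cells spanned the outermost annotated start of 8 genes. At Sox17 its centre lay 4582 bp and at Sox10 1516 bp inside the gene from that start. Sox17 has 8 annotated start sites and Sox10 has 4. At 10 of 10 genes a RING1B peak lay within 2.5 kb of an annotated start site. Scores with EtOH ran from 35.6 at Sox10, 45.9 at Sox8 and 50.0 at Sox11 up to 206 at Sox18 and 320 at Sox9. The covered length ran from 1508 bp at Sox10 to 7683 bp at Sox1 and was lower at each gene in RING1B WT cells, 34.3 kb in all against 42.7 kb.

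**Figure D3:**
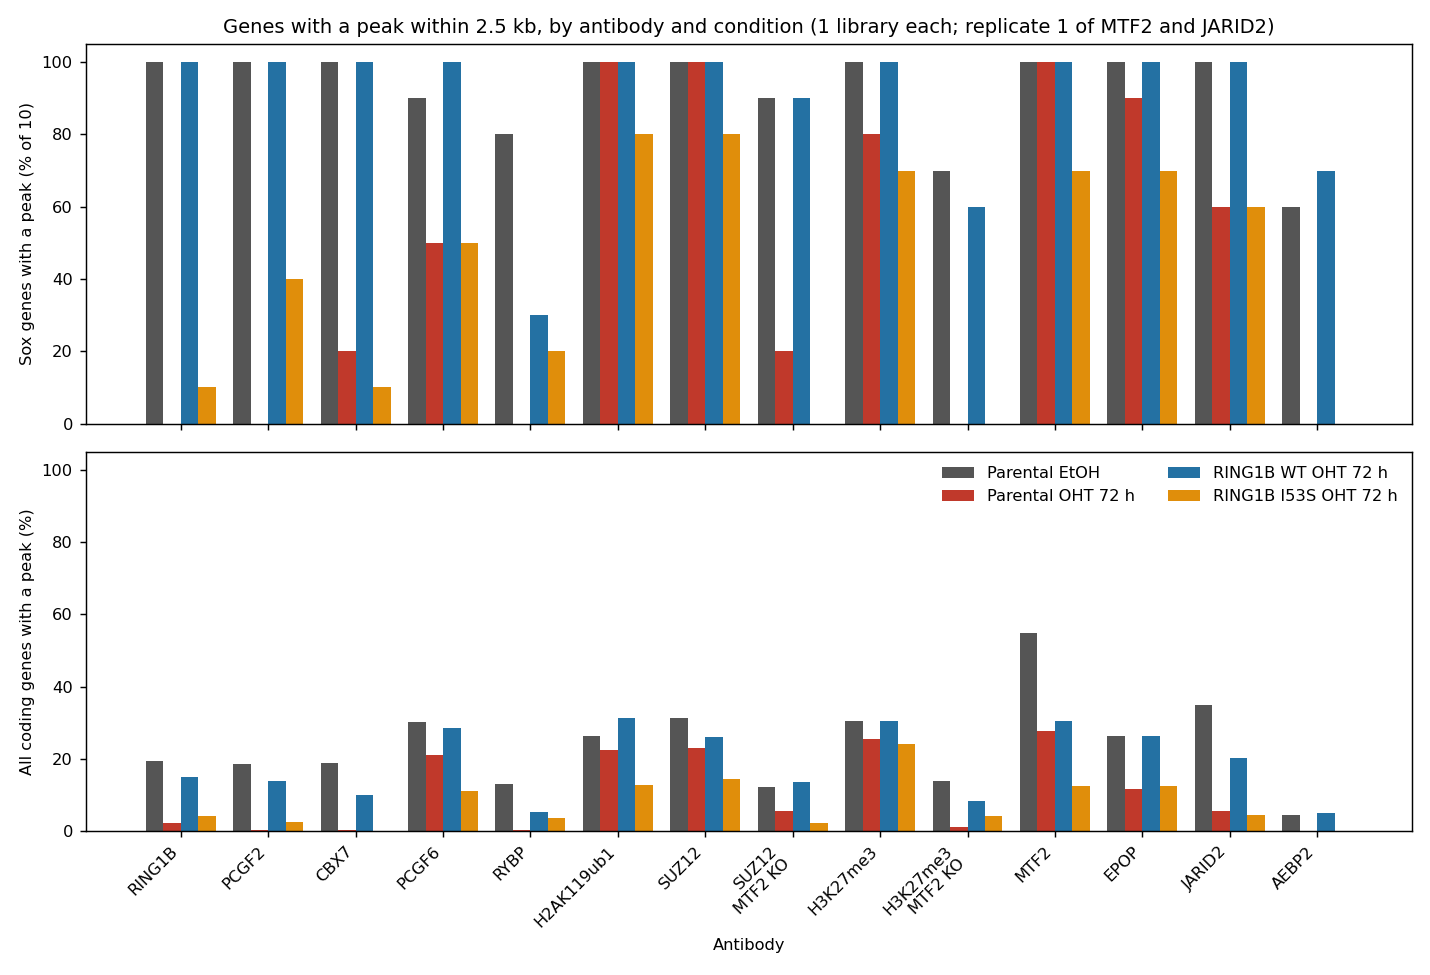
Share of the 10 Sox genes (upper panel) and of all coding genes (lower panel) with a peak within 2.5 kb, by antibody, in 1 library per condition. RING1B, PCGF2 and CBX7 fall from 10 of 10 Sox genes to 0, 0 and 2 in Parental cells with OHT, while H2AK119ub1 and SUZ12 peaks stay listed at 10 of 10 and fall to 8 in I53S cells.

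The canonical PRC1 subunits followed RING1B. PCGF2 was at 10 of 10 genes in Parental vehicle cells (18.7% of coding genes), 0 with OHT (0.333%), 10 in RING1B WT (13.9%) and 4 in RING1B I53S cells (2.59%), namely Sox1, Sox7, Sox9 and Sox18. CBX7, the subunit that reads H3K27me3, was at 10 (18.9%), 2 (0.278%, Sox9 and Sox21), 10 (9.96%) and 1 (0.169%, Sox9). With a score of at least 20 required, PCGF2 was at 2 genes in RING1B I53S cells and CBX7 at 0 in Parental and RING1B I53S cells with OHT. At Sox9 the PCGF2 score was 640 in vehicle cells and 41.8 in RING1B I53S cells.

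Variant PRC1 subunits were less uniform. RYBP had weak peaks, with scores of 11.5 to 19.5, at 8 Sox genes in Parental vehicle cells (13% of coding genes) and at 0 with OHT (0.269%). The latter library carries the title PARE72, which was read as Parental with OHT for 72 h though the labels do not spell it out. It was at 3 genes in RING1B WT cells (5.37%; Sox9, Sox11 and Sox18) and at 2 in RING1B I53S cells (3.68%; Sox9 and Sox11). PCGF6, which also binds promoters through its own partners, was at 9 Sox genes with EtOH (30.3%), 5 with OHT (21.1%), 10 in RING1B WT (28.5%) and 5 in RING1B I53S cells (11%), which became 5, 1, 10 and 0 at a score of at least 20. Sox11 differed from the other members here, since its PCGF6 peaks covered 2410 bp with EtOH and 2530 bp with OHT in Parental cells, with scores of 28.9 and 38.3, whereas the covered length fell at the other 8 genes. In RING1B I53S cells, though, the PCGF6 peaks at Sox11 covered 363 bp with a score of 10.5.

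H2AK119ub1 peaks were listed at 10 of 10 Sox genes in Parental vehicle cells (26.3% of coding genes), at 10 with OHT (22.4%), at 10 in RING1B WT (31.4%) and at 8 in RING1B I53S cells (12.8%), all but Sox8 and Sox10. At a score of at least 20 these were 6, 8, 8 and 5. Covered length fell at 9 genes in Parental cells with OHT, from 42.3 kb to 24.3 kb in all, and was 18.7 kb in RING1B I53S and 47.7 kb in RING1B WT cells. Sox11 was the exception in Parental cells, at 1477 bp with EtOH and 1923 bp with OHT. Scores did not follow the same course, with means over the covered genes of 27.4 with EtOH, 44.8 with OHT, 42.9 in RING1B WT and 32.3 in RING1B I53S cells. Since a score compares a library with its own background, the amount of the mark cannot be read from it. With spike-in scaling, the paper reported complete loss of H2AK119ub1 at PRC1 target loci in RING1B I53S cells with OHT. On western blots it reported global loss of the mark, comparable to that in Parental cells with OHT. The listed peaks are thus no measure of how much of the mark was left.

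SUZ12, the core PRC2 subunit, was at 10 of 10 Sox genes in Parental vehicle cells (31.3%), 10 with OHT (23%), 10 in RING1B WT (26.1%) and 8 in RING1B I53S cells (14.4%), again without Sox8 and Sox10. Both covered length and score fell at each of the 10 genes in Parental cells with OHT, from 52.5 to 27.9 kb and from a mean score of 462 to 72.0. Peaks covered 17.4 kb in RING1B I53S cells at a mean score of 34.0, and in RING1B WT cells 45 kb at 275. H3K27me3 went from 10 genes (30.6%) to 8 in Parental cells with OHT (25.6%, not Sox3 and Sox11) and was at 10 in RING1B WT (30.5%) and 7 in RING1B I53S cells (24.1%, not Sox3, Sox11 and Sox21). Sox18, Sox7 and Sox17 kept the largest shares of their covered length, with 4749, 6679 and 7085 bp of H3K27me3 in RING1B I53S cells against 5853, 7226 and 10378 bp in Parental vehicle cells. The lengths carry no spike-in scaling, and the RING1B I53S list held 18909 H3K27me3 peaks against 18245 in Parental vehicle cells. With spike-in scaling, the paper reported a reduction of H3K27me3 in RING1B I53S cells with OHT. The lengths are thus no measure of how much of the mark was left. These SoxF genes rose in RNA in the same cells, and a link to the peaks was not tested.

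**Figure D4:**
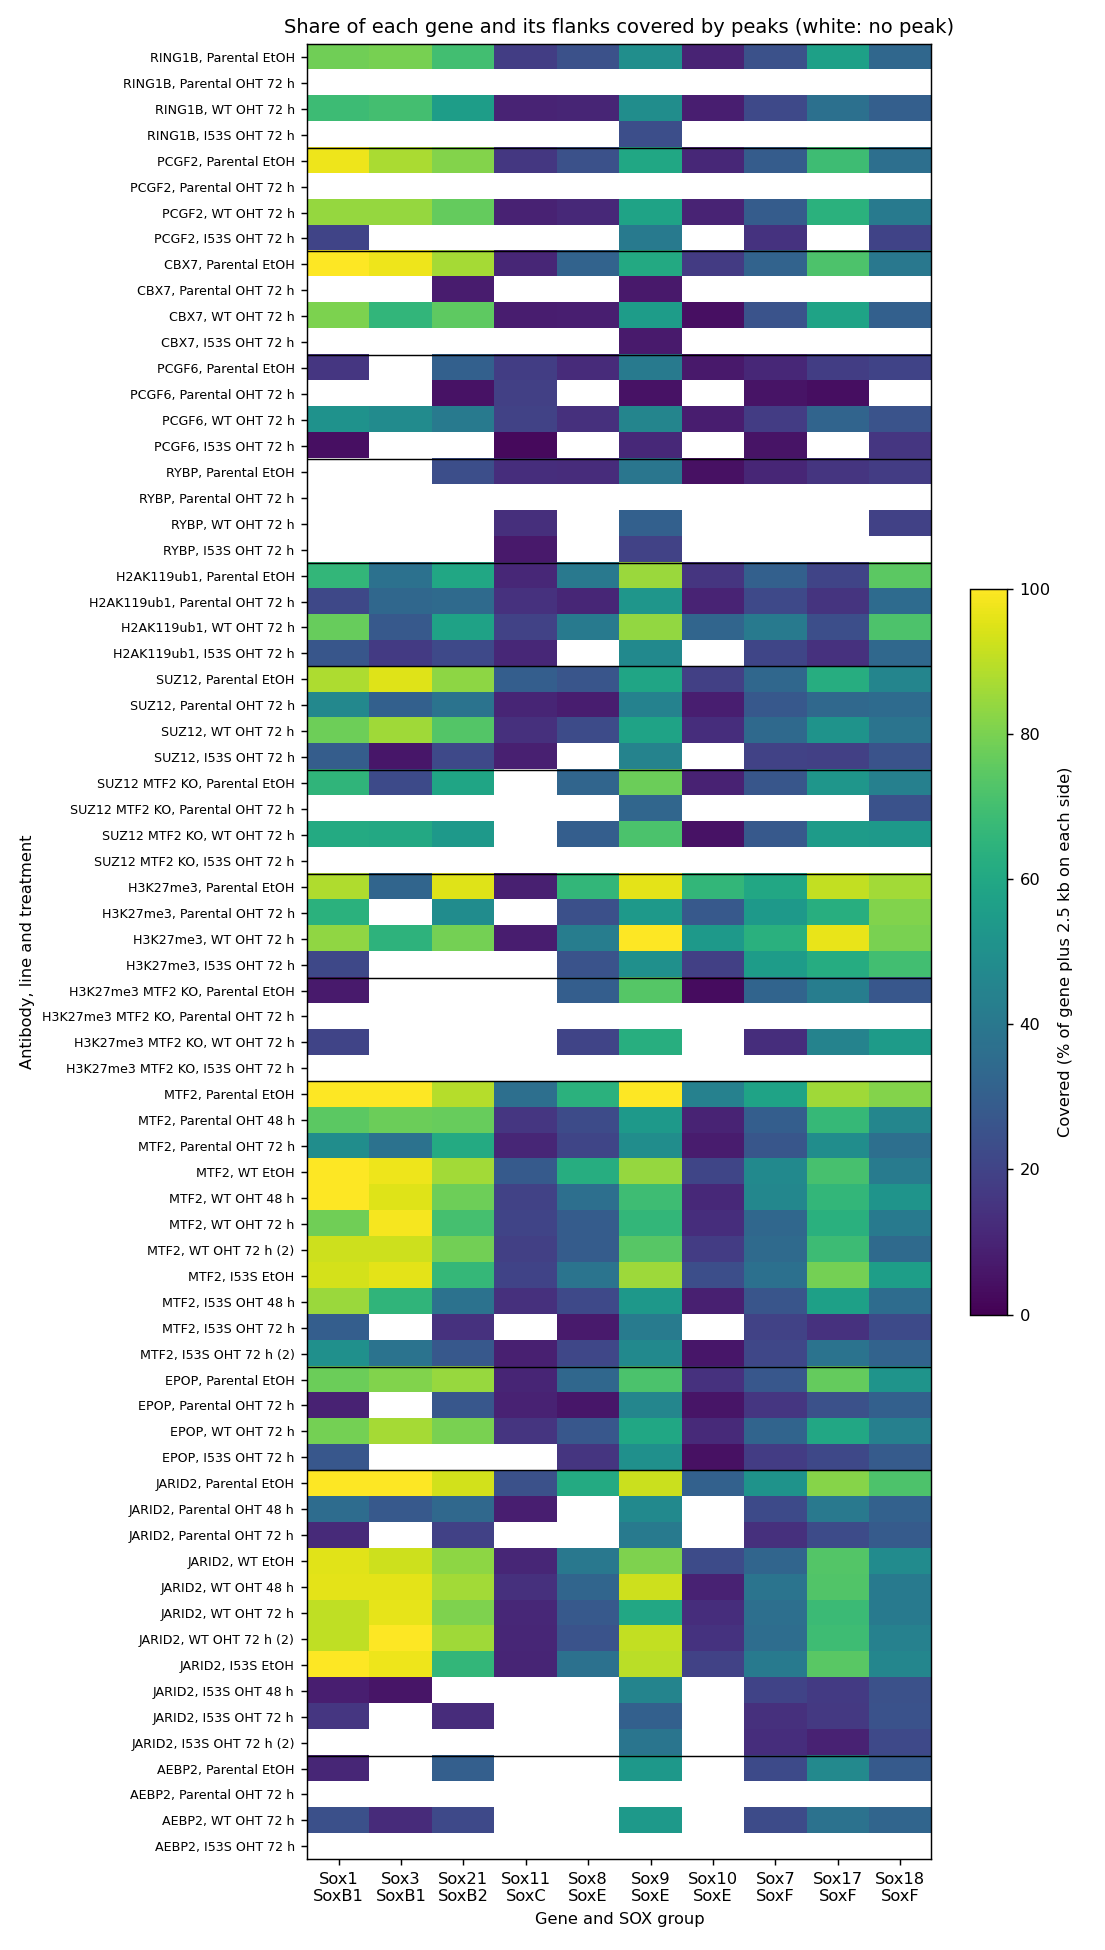
Percent of each Sox gene with its 2.5 kb flanks that is covered by peaks, for each antibody, line and treatment (white: no peak; 2: replicate 2). Sox10 and Sox11 are the least covered by RING1B in vehicle cells, and in I53S cells with OHT the column of Sox9 keeps peaks of 11 of the 12 antibodies while Sox3 and Sox10 keep 2 (first library of each antibody). The RING1B, CBX7, PCGF6 and RYBP peaks at Sox9 there scored under 20.

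In MTF2 KO cells the Sox genes held fewer peaks at the start and fewer after OHT. SUZ12 was at 9 of 10 with EtOH (12.2% of coding genes), at 2 in Parental cells with OHT (5.52%; Sox9 and Sox18), at 9 in RING1B WT (13.6%) and at 0 in RING1B I53S cells (2.13%). Sox11 was the gene with no SUZ12 peak in any of these 4 libraries. H3K27me3 was at 7 with EtOH (13.8%), 0 in Parental cells with OHT (1.04%), 6 in RING1B WT (8.37%) and 0 in RING1B I53S cells (4.19%), which became 2, 0, 1 and 0 at a score of at least 20. Sox9 kept the widest domains, with 7748 bp of H3K27me3 with EtOH and 6599 bp in RING1B WT cells.

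The accessory subunits of PRC2 differed in how they were affected. EPOP was at 10 Sox genes with EtOH (26.2%), 9 in Parental cells with OHT (11.6%), 10 in RING1B WT (26.4%) and 7 in RING1B I53S cells (12.6%). At a score of at least 20 EPOP was at 9, 4, 10 and 4. AEBP2, of the JARID2 form, was at 6 with EtOH (4.6%; Sox1, Sox7, Sox9, Sox17, Sox18 and Sox21), at the same 6 and Sox3 in RING1B WT cells (4.92%) and at 0 in Parental (0.0685%) and RING1B I53S cells (0.132%) with OHT. Its scores were low, between 12.1 and 52.2 with EtOH, and at least 20 at 3 genes with EtOH and at 3 in RING1B WT cells.

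MTF2 and JARID2 were followed over time. MTF2 remained at 10 of 10 Sox genes in Parental cells at 48 h (31.6% of coding genes) and 72 h (27.6%), and in RING1B I53S cells at 48 h (32.7%). At 72 h its I53S libraries gave 7 (12.6%) and 10 (28.1%), with 3091 and 7546 peaks in all, so that the count of 7 came with the smaller list. The covered length in Parental cells went from 75.5 kb with EtOH to 45.5 kb at 48 h and 34.0 kb at 72 h. In RING1B I53S cells it went from 58.3 kb to 39.3 kb and then 14.9 and 28.3 kb. RING1B WT cells covered 62.9 kb, 55.2 kb, and 49.5 and 52.7 kb. At 72 h both I53S libraries lay below both RING1B WT libraries, a separation larger than the spread between replicates, for which 2 libraries a group allow no useful test.

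JARID2 was lost faster. It was at 10 Sox genes with EtOH in Parental (34.8%), RING1B WT (23.7%) and RING1B I53S cells (21.7%). At 48 h it was at 8 in Parental (11.9%) and 6 in RING1B I53S cells (4.22%), and at 72 h at 6 in Parental (5.62%) and at 6 and 4 in the I53S libraries (4.34% and 1.8%). At a score of at least 20 it was at 3 in Parental cells and at 4 and 0 in the I53S libraries at 72 h. RING1B WT cells kept 10 of 10 at 48 h (19.9%) and in both libraries at 72 h (20.3% and 20%). The covered length fell from 69.3 to 24.0 and 13.3 kb in Parental cells and from 56.6 to 12, then 11.2 and 8.26 kb, in RING1B I53S cells, against 56.2, 55.9, and 50.2 and 54.4 kb in RING1B WT cells. The genes with a JARID2 peak in both I53S libraries at 72 h were Sox7, Sox9, Sox17 and Sox18, and Sox8 and Sox10 had none in Parental or I53S cells at either time.

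**Figure D5:**
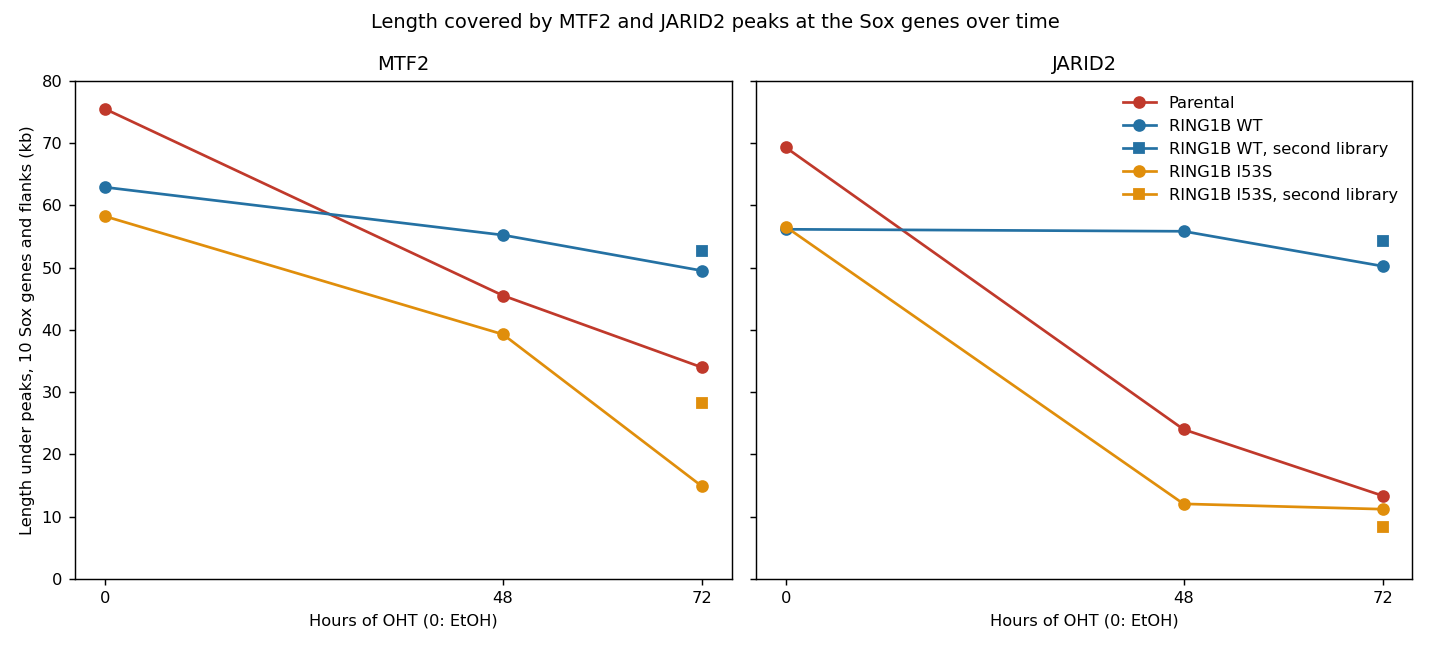
Length under MTF2 (left) and JARID2 (right) peaks, summed over the 10 Sox genes with their flanks, against hours of OHT, with EtOH at 0 and the second library at 72 h as a square. RING1B WT stays between 49.5 and 62.9 kb for either antibody, while JARID2 falls to 13.3 kb in Parental and to 8.26 and 11.2 kb in I53S cells.

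Gene by gene, Sox9 had a peak in 62 of the 70 antibody libraries, Sox18 in 57, Sox7 in 56, Sox17 in 54, Sox1 in 53, Sox21 in 49, Sox8 in 44, Sox11 in 43, Sox10 in 42 and Sox3 in 40. Counting the first library of each antibody, Sox9 had peaks of 11 of the 12 antibodies in RING1B I53S cells with OHT, Sox1, Sox7 and Sox18 of 8, Sox17 of 6, Sox11 and Sox21 of 4, Sox8 of 3 and Sox3 and Sox10 of 2. In these cells the RING1B, CBX7, PCGF6 and RYBP peaks scored under 20 at every Sox gene that had one, Sox9 included. Sox9, with the most antibodies left, and Sox3 and Sox10, with the fewest, rose in RNA in these cells. Sox11 and Sox21, with 4 each, did not pass the test. The counts include H2AK119ub1 peaks, which do not measure the mark, and how the counts relate to RNA was not tested. The first MTF2 library used for this count had the shorter list, with 3091 peaks against 7546 in the second. In the second, MTF2 was at all 10 genes, so Sox3, Sox10 and Sox11 had MTF2 as well. For Sox11, which had 723 and 427 reads in the Parental vehicle libraries, RING1B, SUZ12 and H2AK119ub1 peaks were listed in Parental vehicle cells along with the reads. These antibodies had no vehicle library in RING1B WT or RING1B I53S cells. After OHT no RING1B peak was listed at Sox11 in Parental cells and no gain in RNA was called.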

How the data were processed

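RNA-seq of 16 libraries and ChIP-seq of 70 antibody libraries and 4 inputs were read. Raw counts per gene were made by the authors with STAR 2.7 without multi-mapped reads, samblaster and featureCounts on GENCODE M21 without strand, on cDNA made with SMART-seq2. Peak scores are the −log10 p that the authors obtained with MACS2 2.1.1 for each library after Bowtie 1.2.2 alignment to mm10, and the lowest deposited score was 10. The deposited lists hold no reads, so occupancy is scored by presence, length and score. The authors' comparison tables (shrunken log2 fold changes and p-values) and normalized tables were not used. No per-sample column was left out.

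Counts were tested in R 4.3.3 with edgeR 4.0.16 (TMM, filterByExpr, quasi-likelihood fit) over 18154 genes in 12 libraries and, apart, 25170 genes in 4 Eed fl/fl libraries, with DESeq2 1.42.0 as an alternative and p-values adjusted by Benjamini-Hochberg over all genes tested. Library depth was 8140106 to 12743460 reads in genes (median 9991785) in the 12 libraries, and the biological coefficient of variation was 0.181 there and 0.251 in Eed fl/fl cells, which sets the precision with 2 libraries a group. Where a vehicle group had 0 reads, a fold is a lower bound against 3 reads over the group, and ratios over 1 to 3 reads carry a 95% counting interval, which covers counting error only. A peak counted for a gene when at least 1 base lay within 2.5 kb of the GENCODE gene. No other coding gene lies in these windows (0 neighbours). Genes named are the 10 members, Rnf2 and Eed, other Sox genes called in any OHT effect, the 2 genes of highest r with each tested member, and per list the 3 with the lowest adjusted p in Parental cells. The members, lists and rules were chosen with earlier results of these data known. Titles with Ring1 were read as the Parental line, and PARE72 as Parental with OHT for 72 h. Replicates of each group differed by more than sampling noise (chi-square of 6.48 to 25.7 per gene). The labels give 72 h for all libraries, and titles with 48 were taken as 48 h. Scripts were tested on simulated data. The alternatives were RLE scaling, other filters and thresholds, smaller fits, a replicate block, each library left out, and other windows, lengths and scores of peaks.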

Additional observations from a re-analysis of the deposited data

Results flagged for a closer look

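Differences between lines in the response to OHT passed their own test at 2 genes. For Sox7 the OHT effect in RING1B WT cells minus that in Parental cells was -7.61 on the log2 scale (adjusted p 0.0417), from 0 and 0 reads going to 62 and 58 in Parental cells and from 1 and 2 going to 3 and 4 in RING1B WT cells. The size rests on a vehicle group at 0 and is not a fold. For Sox9 the same difference was -5.50 (SE 1.23, adjusted p 0.0229), and that between RING1B I53S and RING1B WT cells was 6.48 (SE 1.34, adjusted p 0.0308). Sox9 had 8 reads in the first RING1B WT vehicle library and 0 in the second. Without the first, neither Sox7 nor Sox9 was called in either difference, and each of these calls was lost without some other single libraries too.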

How the results depend on the processing

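Of the Sox genes called in Parental cells with OHT, the count of 7 stayed within 1.5 times under each alternative but 1, and so did the count of 7 in RING1B I53S cells. A filter of at least 10 counts in every library left 2 members to test (Sox11 and Sox21) and gave 0 calls in the OHT effects of Parental and RING1B I53S cells, 0 between RING1B WT and Parental cells and 0 between RING1B I53S and RING1B WT cells with OHT, and 0 in either difference of OHT effects; the genes that rose are removed by that filter because their vehicle counts are low. Fitting only the groups of the comparison gave 0 in place of 1 for the difference of OHT effects between RING1B I53S and RING1B WT cells; the cause was not tested. Leaving out 1 library at a time gave 7 to 7 calls in Parental and 6 to 8 in RING1B I53S cells, 2 to 4 between RING1B WT and Parental cells with OHT (2 without the first RING1B WT or the first Parental library), 1 to 6 between RING1B I53S and RING1B WT cells with OHT (1 without the first RING1B WT library), and 0 to 1 in the differences of OHT effects, where the main counts were 2 and 1. The difference between RING1B WT and Parental cells had 0 calls without the first RING1B WT library of either treatment or the second Parental library with OHT, and 1 without any other. The difference between RING1B I53S and RING1B WT cells had 0 calls without the first RING1B WT library of either treatment, the second RING1B I53S library with EtOH or either with OHT. The lone library left in a group is assumed to vary like the others. Counts that were 0 stayed 0 under the alternatives run, and of the refitted fold changes of single genes 284 kept direction and side of the threshold, 3 lost the call and 19 changed sign, in each case one that was not called and with 1 library left out. Their lowest and highest values were -0.51 and 0.038 for Sox11 in Parental cells, -0.11 and 6.06 for Sox9, -0.42 and 1.32 for Sox18 and -0.41 and 0.31 for Sox21 in RING1B WT cells, and -0.35 and 0.093 for Sox11 and -0.10 and 0.31 for Sox21 in RING1B I53S cells. In Eed fl/fl cells they were -0.17 and 0.81 for Sox7, -0.26 and 1.01 for Sox8, -1.12 and 1.57 for Sox9, -0.62 and 2.37 for Sox10, -0.85 and 1.10 for Sox17, -1.22 and 0.87 for Sox18 and -0.11 and 0.79 for Sox21.

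The sources do not say that a replicate number marks one culture or day, and with 2 numbers a group the samples share only a number. Replicate differences correlated between -0.003 and 0.301 among groups of the 3 lines and at 0.459 in Eed fl/fl cells. With the replicate block the count was 7 in Parental and 7 in RING1B I53S cells, 6 and 6 between lines with OHT, 3 in place of 2 for the difference of OHT effects between RING1B WT and Parental cells and 1 between RING1B I53S and RING1B WT cells.

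Among pairs of a Sox gene and a library with a peak, a score of at least 20 left 16 of 29 for PCGF6, 2 of 13 for RYBP, 13 of 20 for SUZ12 and 3 of 13 for H3K27me3 in MTF2 KO cells, and 6 of 13 for AEBP2. Summed over libraries, the other antibodies and settings stayed within 1.5 times, but single libraries moved more at that score, among them EPOP (9 to 4 in Parental and 7 to 4 in RING1B I53S cells with OHT), JARID2 (6 to 3 in Parental cells and 4 to 0 in the second I53S library at 72 h), H2AK119ub1 (10 to 6 in Parental vehicle and 8 to 5 in RING1B I53S cells), PCGF2 (4 to 2 in RING1B I53S cells), CBX7 (2 to 0 in Parental and 1 to 0 in RING1B I53S cells with OHT) and RING1B (1 to 0 in RING1B I53S cells). Depth limits Sox1 and Sox3, and 1 ChIP-seq library per condition limits the peaks.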

Other observations

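Some genes of the SoxE and SoxF groups were already read in Eed fl/fl cells with EtOH, where Sox7 had 3.05 ± 1.37 CPM (SD, n = 2), Sox9 2.69 ± 1.89 CPM and Sox17 15 reads in all. In the vehicle libraries of Parental cells these genes had 0, 5 and 1 reads in all. Other members were read in the RING1B lines too. Sox8 had 36 reads in all in Eed fl/fl against 27 in Parental and 26 in RING1B I53S cells with EtOH. For Sox10 these were 32 against 9 and 27. The 2 sets were scaled separately and come from different lines, and the difference was not tested. Endoderm genes showed the same order, with summed levels of 53.2 to 67.1 CPM in Eed fl/fl and 14.3 to 17.8 CPM in Parental cells with EtOH.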
